A study of Arabidopsis thaliana with 8 samples.

Results

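The genes described here are 3 Arabidopsis thaliana genes of RNA binding and RNA processing. They are AT2G37510, which encodes an RNA-binding protein, AT2G36480, which encodes an ENTH/VHS-type protein linked to mRNA 3′ processing, and AT3G07790, which encodes a DGCR14-related protein. They were found among the 691 genes measured on an expression array by a probe paired with 1 gene. Total RNA came from 4 samples of petc, a mutant without the Rieske protein of the photosynthetic cytochrome b6f complex, and from 4 samples of wild type (WT), both of the ecotype Landsberg. In both groups the samples were numbered 1 to 4. The sources used here name no petc allele, tissue, age or growth condition and do not say whether the replicates were separate plants, so the spread between samples may be technical.

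The 3 genes were chosen from the comparison of petc with WT itself. Among 595 single-gene probes with enough values, AT2G37510 had the 9th highest and AT3G07790 the 10th highest difference between petc and WT, and AT2G36480 had the 2nd lowest. Their differences between the groups are therefore given as a description, with no test. All 3 were past the threshold of that comparison, in which 27.9% of the tested probes were called, 12.7% higher and 15.3% lower in petc (11.1% and 13.9% of the single-gene probes), and the count of 3 follows from the choice. RefSeq (assembly TAIR10.1) places AT2G37510 and AT2G36480 on chromosome 2 and AT3G07790 on chromosome 3. The data name no genome build, so positions are not given, and the probe sequences were not used here.

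Proteins with an RNA recognition motif, a common RNA-binding fold of plants, attach to RNA and act in its splicing, transport, stability or translation. The 3′ end of an mRNA is made by cutting the transcript and adding a poly(A) tail. In yeast the cleavage factor Pcf11 takes part in this and holds on to the tail domain of RNA polymerase II through a domain whose fold resembles that of ENTH and VHS domains. The human protein DGCR14, also called ESS2, was found in spliceosomes, the complexes that remove introns. In plants, nuclear genes also encode most of the proteins that process RNA in plastids. Plastids are the organelles in which the cytochrome b6f complex carries electrons between the photosystems.

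The deposited values are intensities in arbitrary units on a linear scale. In each sample 2978 to 3009 of 3439 probes were above 0, and the total intensity was 3352 to 3440 in petc and 3287 to 3317 in WT. Within a group, numbers 1 and 2 resembled each other, as did numbers 3 and 4, with Spearman's rho across probes of 0.975 to 0.988. Between these pairs of numbers rho was 0.899 to 0.922 within a group, and samples of the same pair from different groups had a rho of 0.897 to 0.922. The labels do not say what the numbers mark. No check of the labels through PETC, the mutated gene, was made, as it is not analysed here.

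Expression of the RNA-binding gene AT2G37510 was higher in petc. Its deposited intensity was 0.701, 0.745, 0.740 and 0.815 in petc numbers 1 to 4, against 0.235, 0.304, 0.318 and 0.267 in WT numbers 1 to 4. The groups did not overlap, and the lowest petc value was 2.20 times the highest WT value. The same separation was seen for 16.6% of all tested probes on the side of higher values in petc, so it is not rare on this array. Mean intensity was 0.750 ± 0.0474 in petc and 0.281 ± 0.0378 in WT (SD, n = 4 each). After quantile normalisation the log2 difference, petc minus WT, was 1.41 ± 0.12 (SE from limma), or 2.67-fold higher in petc. Here and for the other genes this SE treats all samples as independent. As the numbers of a pair resembled each other across probes, it may be too small. Where petc and WT shifted together between the pairs of numbers, it may instead be too large. For AT2G37510 itself the SD within pairs was no smaller than the SD over the group, as given below. In bulk RNA, more transcript per cell and more cells that express the gene cannot be told apart.

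AT2G37510 differed to a similar degree at each replicate number. The log2 difference was 1.60 at number 1, 1.31 at number 2, 1.18 at number 3 and 1.57 at number 4. Within petc, numbers 3 and 4 lay 0.02 above numbers 1 and 2 on the log2 scale, and within WT they lay 0.10 above. The corresponding absolute difference of a tested probe had a median of 0.270 in petc and 0.303 in WT, so the pairs of numbers differed less in the RNA-binding gene than in most probes. Its SD on the log2 scale was 0.0747 in petc and 0.197 in WT, both below the median SD over probes of 0.206 in petc and 0.239 in WT. Within the pairs of numbers its SD was 0.0902 in petc and 0.231 in WT, against medians over probes of 0.108 and 0.126. In WT its spread within the pairs was thus larger than that of a typical probe.

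**Figure D1:**
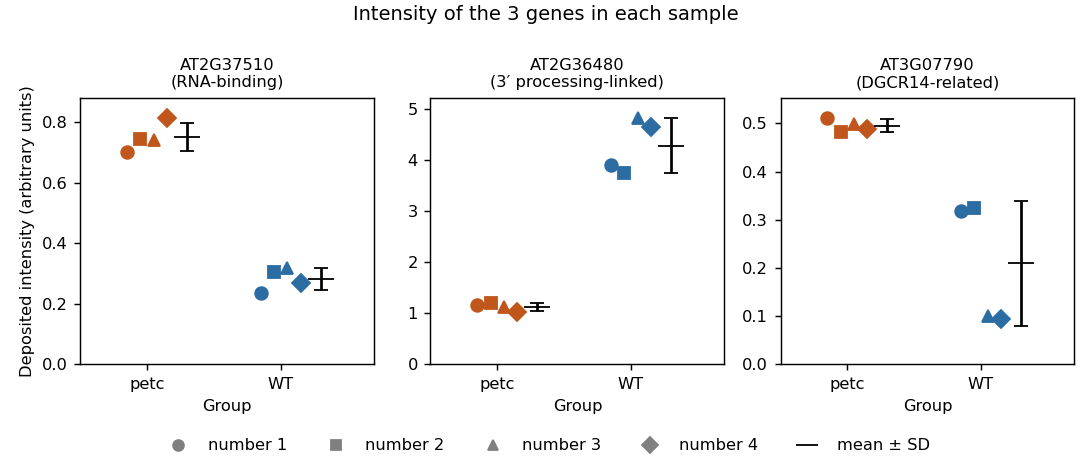
Deposited intensity (arbitrary units, linear axis from 0) of AT2G37510, AT2G36480 and AT3G07790 in the 4 petc and 4 WT samples, with 1 symbol per replicate number and the mean ± SD beside each group. The petc values lie above WT for AT2G37510 and AT3G07790 and below WT for AT2G36480, and the WT values of AT3G07790 split into 0.318 and 0.324 for numbers 1 and 2 and 0.0994 and 0.0942 for numbers 3 and 4.

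AT2G36480, the gene linked to mRNA 3′ processing, was lower in petc. Its deposited intensity was 1.17, 1.20, 1.12 and 1.02 in petc numbers 1 to 4, against 3.92, 3.76, 4.84 and 4.65 in WT numbers 1 to 4. Every WT value exceeded every petc value, and the lowest WT value was 3.14 times the highest petc value. Such a separation on the side of lower values in petc held for 15.4% of all tested probes. Mean intensity was 1.13 ± 0.0759 in petc and 4.29 ± 0.533 in WT (SD, n = 4 each). The log2 difference was -2.13 ± 0.12 (SE), which is 4.37-fold lower in petc after normalisation, while the deposited means differed 3.81-fold.

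The size of the AT2G36480 difference varied somewhat with the replicate number. It was -1.94 at number 1, -1.83 at number 2, -2.35 at number 3 and -2.39 at number 4 on the log2 scale. Both groups contributed, since numbers 3 and 4 lay 0.17 below numbers 1 and 2 in petc (log2 difference -0.17) and 0.32 above them in WT. Neither shift was unusual among probes, as 33.0% of tested probes in petc and 51.9% in WT had a smaller absolute shift. The test of the difference between the pairs of numbers in the petc effect gave -0.48 ± 0.12 (SE), with limma adjusted p = 0.201.

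AT3G07790, the DGCR14-related gene, was higher in petc, but by an amount that depended on the replicate number. Its deposited intensity was 0.512, 0.481, 0.499 and 0.488 in petc numbers 1 to 4, a spread of 2.69% of the mean (coefficient of variation). In WT it was 0.318, 0.324, 0.0994 and 0.0942 for numbers 1 to 4, with a coefficient of variation of 62.0%. The petc samples were nearly alike, whereas WT numbers 3 and 4 were far below WT numbers 1 and 2. The groups did not overlap, as for 16.6% of all tested probes on this side, and the lowest petc value was 1.49 times the highest WT value. Mean intensity was 0.495 ± 0.0133 in petc and 0.209 ± 0.130 in WT (SD, n = 4 each), and the log2 difference was 1.40 ± 0.41 (SE).

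The mean difference of AT3G07790 was similar to that of AT2G37510, but its values did not cluster around it. It was 0.70 at number 1 and 0.57 at number 2, against 2.15 at number 3 and 2.19 at number 4, so no single number showed the mean of 1.40. In a fit of numbers 1 and 2 alone the log2 difference was 0.64, and in a fit of numbers 3 and 4 alone it was 2.18. Within WT, numbers 3 and 4 lay below numbers 1 and 2 by a log2 difference of -1.64, and 98.1% of tested probes had a smaller absolute shift. Within petc the same shift was -0.11, and 20.8% of tested probes had a smaller one. Within a pair of numbers the gene was as steady in both groups, with an SD of 0.0525 in petc and 0.0504 in WT on the log2 scale.

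**Figure D2:**
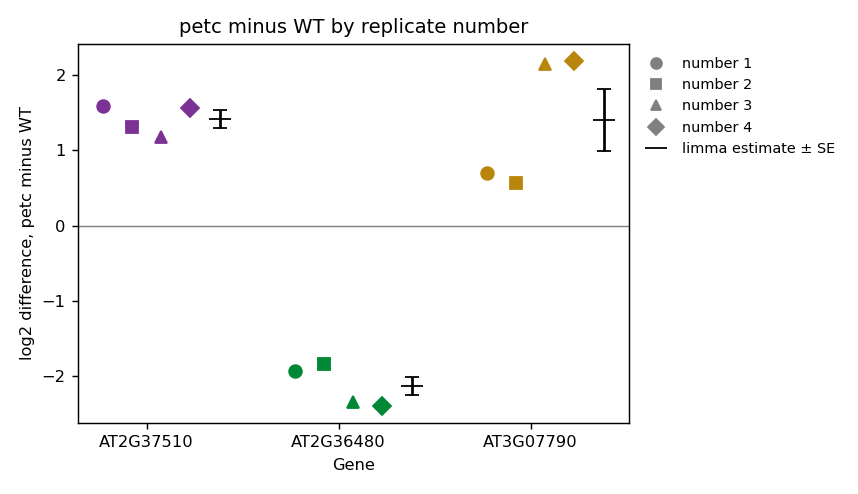
Normalised log2 difference, petc minus WT, of AT2G37510, AT2G36480 and AT3G07790 at each of the 4 replicate numbers (symbols), with the limma estimate ± SE in black. AT2G37510 runs from 1.18 to 1.60 and AT2G36480 from -2.39 to -1.83, while AT3G07790 is at 0.57 and 0.70 for numbers 2 and 1 and at 2.15 and 2.19 for numbers 3 and 4.

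The petc effect on AT3G07790 differed between the pairs of numbers by 1.53 ± 0.11 on the log2 scale (SE, limma interaction term, adjusted p = 0.0281). The adjusted p was 0.123 once the replicate number was a block in limma. Only 3 of 2947 probes, or 0.102%, were called in this test, all with a larger petc minus WT difference in numbers 3 and 4. The call of AT3G07790 was also lost on leaving out any 1 of the 8 samples, with limma adjusted p of 0.0762 to 0.147 and differences of 1.46 to 1.58. Earlier results on these data had already shown this split, and the test takes its error from samples that resemble each other closely, so it measures the spread within the pairs alone. For AT2G37510 the difference between the pairs was -0.08 ± 0.22 (SE, limma adjusted p = 0.909). What separated the pairs of numbers was not tested.

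**Figure D3:**
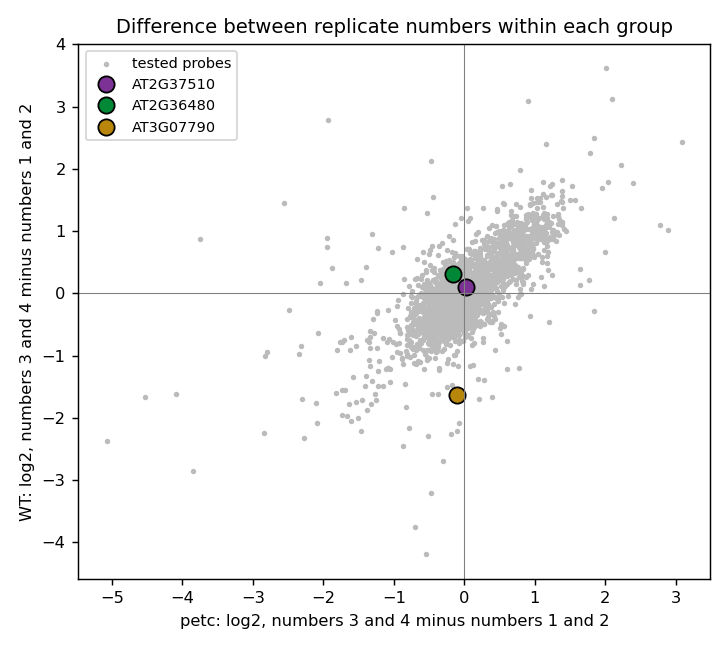
Normalised log2 difference between replicate numbers 3 and 4 and numbers 1 and 2 within petc (horizontal axis) and within WT (vertical axis) for each tested probe (grey), with AT2G37510, AT2G36480 and AT3G07790 in colour. AT3G07790 lies at -0.11 in petc and -1.64 in WT, while AT2G37510 and AT2G36480 lie near the middle of the cloud.

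The genes whose pattern over the 8 samples was most like that of each gene were sought among 586 other single-gene probes. Likeness was the root mean square difference of the normalised log2 values, each probe centred on its own mean, where 0 is the same pattern. The genes were picked on these same 8 samples, so a pattern that they share with AT2G37510, AT2G36480 or AT3G07790 follows from the choice. For AT2G37510 the closest were AT2G21720 (0.144), AT2G22890 (0.176) and AT1G05490, also named chr31 (0.180), against a median of 0.782 over all candidates. AT2G22890, a gene of the FAD4-like family of lipid desaturases, had intensities of 1.48, 1.57, 1.46 and 1.48 in petc numbers 1 to 4, against 0.624, 0.539, 0.596 and 0.553 in WT numbers 1 to 4. Its pairs of numbers differed little within each group, by log2 differences of -0.04 in petc and -0.05 in WT. The other two did not share this in both groups, since numbers 3 and 4 of AT2G21720 lay 0.23 above numbers 1 and 2 in petc, and those of AT1G05490 differed by -0.32 in WT.

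For AT2G36480 the closest gene was AT4G03150 (0.204), followed at some distance by the alpha/beta-hydrolase family gene AT4G34310 (0.330) and AT1G01500 (0.351), with a median of 1.09 over all candidates. AT4G03150 had intensities of 0.676, 0.744, 0.732 and 0.750 in petc numbers 1 to 4, against 2.12, 2.08, 2.40 and 2.65 in WT numbers 1 to 4. As for AT2G36480, its WT values were higher in numbers 3 and 4 than in numbers 1 and 2, by 0.30 on the log2 scale. AT1G01500 was also higher there in WT (0.50), whereas AT4G34310 was lower (-0.10). In petc the same shift was -0.17 for AT2G36480, against -0.03 for AT4G03150, -0.28 for AT4G34310 and -0.16 for AT1G01500.

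For AT3G07790 the closest genes were less close, with AT4G09620, an mTERF family gene, at 0.290, AT5G36470 at 0.339 and AT1G62760, a gene of the pectin methylesterase inhibitor superfamily, at 0.354, and a median of 0.945 over all candidates. In WT all 3 were lower in numbers 3 and 4, by log2 differences of -0.93, -1.22 and -1.23. AT4G09620 had intensities of 1.85, 1.93, 1.31 and 1.35 in petc numbers 1 to 4, against 0.724, 0.841, 0.399 and 0.412 in WT numbers 1 to 4, and was thus lower in numbers 3 and 4 in both groups. In petc the pairs of numbers differed by -0.47 for AT4G09620, 0.61 for AT5G36470 and -0.36 for AT1G62760. AT1G62760 had low intensities of 0.138, 0.102, 0.103 and 0.106 in petc numbers 1 to 4, so its shift came from number 1. The evenness of AT3G07790 within petc was thus not shared by AT4G09620 and AT5G36470, and for AT1G62760 this rests on petc number 1.

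Other genes of RNA binding and RNA processing were then examined. Lists of mRNA 3′ end processing factors (29 genes) and of pre-mRNA splicing factors (28 genes) had 0 members on a single-gene probe, so the pathways nearest to AT2G36480 and AT3G07790 could not be described further. Of 30 organelle and glycine-rich RNA-binding proteins, 3 were measured, and a further 17 RNA genes were found among the gene names of the array, of which 16 had enough values to be tested. Of these 19 genes, 3 rose and 1 fell in petc in limma, and 15 did not pass. With the numbers of a pair as correlated readings 1 of the 19 passed, AT3G15140, beside 9.24% of all single-gene probes, and under the replicate block 7 passed, 5 higher and 2 lower, beside 45.9%. The share of 21.1% in the fit without either was below the 25.0% of all 595 tested single-gene probes and so shows no excess of calls. The median log2 difference was 0.05 over the 19 genes and -0.04 over all tested single-gene probes.

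Of the measured organelle RNA-binding proteins, AT3G08000, which like AT2G37510 belongs to the RNA recognition motif family, rose in petc. It had intensities of 0.370, 0.325, 0.386 and 0.369 in petc numbers 1 to 4, against 0.284, 0.266, 0.283 and 0.276 in WT numbers 1 to 4, without overlap. Such a separation on this side held for 16.6% of all tested probes. The log2 difference was 0.34 ± 0.09 (SE, limma adjusted p = 0.0205). It no longer passed without petc replicate 1 (adjusted p = 0.0574), without petc replicate 3 (0.0601), in numbers 1 and 2 alone (0.103) and with the numbers of a pair as correlated readings (0.216), and the adjusted p of all alternatives ran from 0.00299 to 0.216. AT1G70200 (RBD1), needed for plastid ribosomal RNA maturation, had 0.802 ± 0.0791 in petc and 1.01 ± 0.0895 in WT (SD, n = 4 each) and a log2 difference of -0.32 ± 0.11, with limma adjusted p = 0.0685, 0.0172 with the replicate block and 0.388 with correlated readings. AT1G01080, a plastid RNA recognition motif protein, had 1.49 ± 0.110 in petc and 1.36 ± 0.0999 in WT, with a log2 difference of 0.01 ± 0.10.

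Among the further RNA genes, the exonuclease gene AT3G15140 and the methyltransferase gene AT5G10910 rose and AT1G12800 fell. AT3G15140, of the ERI-1 exonuclease family, had 0.938, 1.04, 0.833 and 0.902 in petc numbers 1 to 4, against 0.558, 0.634, 0.540 and 0.599 in WT numbers 1 to 4, with a log2 difference of 0.67 ± 0.11 (SE, limma adjusted p = 0.00262). It passed in every alternative run, with adjusted p of at most 0.0382. AT5G10910, of the MraW family of methyltransferases, had 0.374, 0.400, 0.343 and 0.322 in petc, against 0.192, 0.248, 0.147 and 0.200 in WT, in the same order of numbers. Its log2 difference was 0.81 ± 0.16 (SE, limma adjusted p = 0.00742), and the call was lost with the numbers of a pair as correlated readings (0.0950). In both genes all petc values lay above all WT values, as they did for 16.6% of all tested probes.

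AT1G12800, which encodes a plastid protein with S1 RNA-binding domains, had 2.07, 2.13, 3.70 and 2.98 in petc numbers 1 to 4, against 3.37, 3.42, 4.90 and 4.50 in WT numbers 1 to 4. Here the groups overlapped, because both were higher in numbers 3 and 4, although petc lay below WT at every number. The log2 difference was -0.93 ± 0.20 (SE, limma adjusted p = 0.0108), and it depended on the scaling, being -0.60 with the values as deposited (adjusted p = 0.0822) and -0.63 after median centring (0.0502), where neither passed. The call was also lost with the numbers of a pair as correlated readings (0.0508).

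The further RNA genes named without having passed included AT3G04500, of the RNA recognition motif family, with 0.593 ± 0.326 in petc and 0.678 ± 0.270 in WT (SD, n = 4 each), and AT2G19870, a SpoU family methyltransferase gene, with 0.554 ± 0.105 in petc and 0.396 ± 0.104 in WT. The AT3G04500 values followed the replicate number more than the group, with 0.319, 0.308, 0.816 and 0.929 in petc numbers 1 to 4 and 0.457, 0.433, 0.913 and 0.910 in WT numbers 1 to 4. AT2G19870 had a log2 difference of 0.49 ± 0.23 (limma adjusted p = 0.166, 0.00590 with the replicate block and 0.345 with correlated readings). AT3G13180, an RNA methyltransferase gene of the NOL1/NOP2/sun family, had 0.32 ± 0.15 (limma adjusted p = 0.172, 0.0276 with the block and 0.638 with correlated readings). The SpoU family gene AT4G38020 had -0.19 ± 0.50, the RNA-binding gene AT2G22090 (UBA1A) 0.05 ± 0.21 and the RNA methyltransferase family gene AT5G64150 0.06 ± 0.24. The RimM family gene AT5G46420 was listed at 0 in all 4 WT samples and in 3 of 4 petc samples and was not tested.

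**Figure D4:**
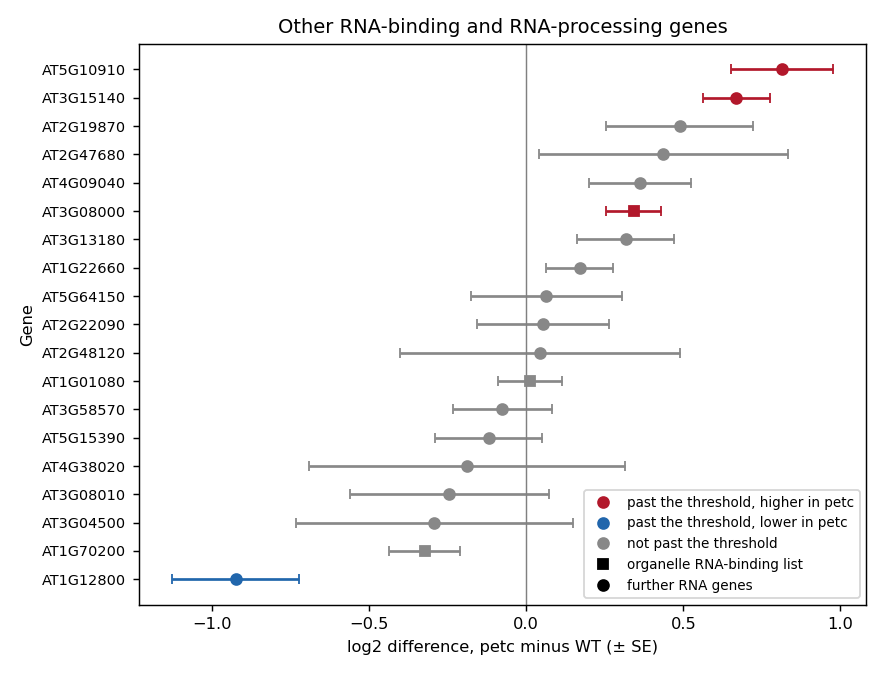
Log2 difference, petc minus WT, ± SE of the 19 tested RNA genes other than AT2G37510, AT2G36480 and AT3G07790, in order of size, with squares for the organelle RNA-binding proteins and circles for the further RNA genes. AT5G10910, AT3G15140 and AT3G08000 passed the threshold with higher values in petc and AT1G12800 with lower values, within a range of -0.93 to 0.81.

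The differences of AT2G37510, AT2G36480 and AT3G07790 kept their sign under every alternative run. That of AT2G37510 lay between 1.17 and 1.46, that of AT2G36480 between -2.34 and -1.88, and that of AT3G07790 between 0.64 and 2.18 on the log2 scale. Because the groups did not overlap, a kept sign on leaving out a sample follows from the choice of the genes and adds nothing.

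**Figure D5:**
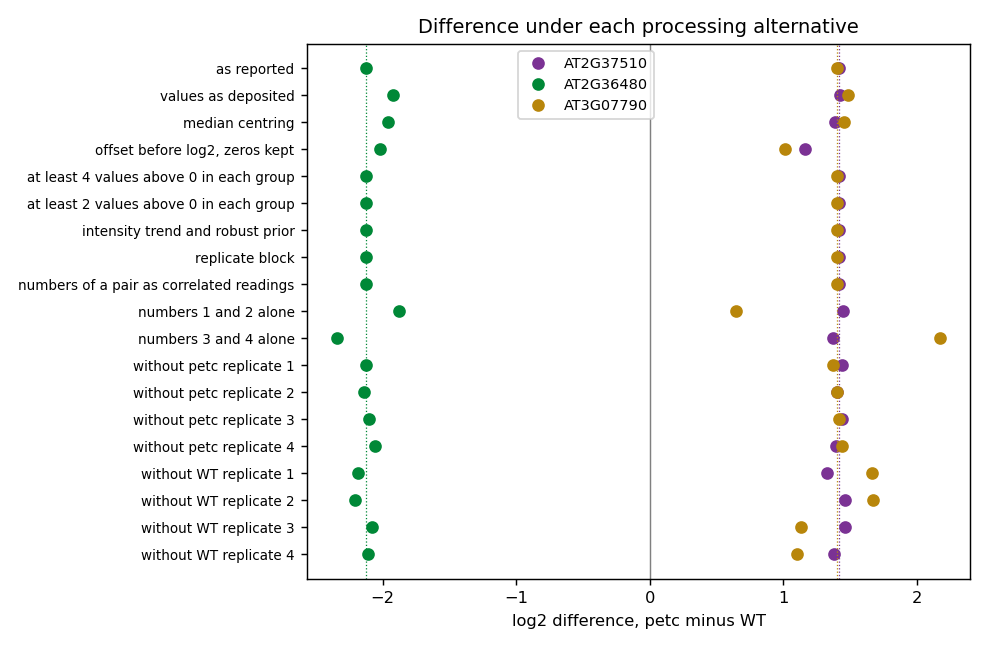
Log2 difference, petc minus WT, of AT2G37510, AT2G36480 and AT3G07790 as reported and under each of 18 processing alternatives (rows), with dotted lines at the reported values. The points of AT2G37510 and AT2G36480 stay within 0.3 of the reported value, and those of AT3G07790 spread to 0.64 with numbers 1 and 2 alone and to 2.18 with numbers 3 and 4 alone.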

How the data were processed

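One expression array value per probe was measured in 4 petc and 4 WT samples. The deposited intensities are on a linear scale, and the sources used here do not give the scanner, background correction, scaling or filters of the authors. Of 3439 probes, GEO's platform annotation pairs 692 with 1 gene, 870 with several and 1877 with none; 690 of the 692 were found in RefSeq. Values of 0 were treated as missing, the others taken to log2 and quantile normalised. The largest gap between sample medians was 0.131 (log2), which does not by itself call for that step. The values as deposited and median centring were run as alternatives. The size of the AT2G36480 difference and the call of AT1G12800 depended on this choice. The 2947 probes with at least 3 values above 0 in each group were compared with limma 3.58.1 in R 4.3.3. Benjamini-Hochberg adjustment ran over all these probes, with a threshold of 0.05. The procedure was tested on simulated data whose samples were independent. As those data lacked the likeness within pairs of numbers, that test does not give the rate of false calls here. Figures were drawn with matplotlib 3.10.9. The number of samples limits the precision.

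The members and lists were chosen with earlier results of these data known. The 17 further RNA genes were picked from the array's gene names after the lists turned out to hold 3 measured genes, and a search of RefSeq names for RNA terms added 0. Named genes are the 3 members, for each the 3 single-gene probes of most similar pattern, and from either RNA list every gene past the threshold and the 6 brightest others. All 4 pairs of samples with the same replicate number deviated together from their group means (Pearson r of 0.542 to 0.623 across probes). Samples of petc and WT with different numbers of the same pair also did (0.369 to 0.442), so much of this likeness was not particular to the number. A fit blocked on the number is given where it changes a call. The pairing rests on the data, as no label says what a number marks. Other alternatives were the scaling, an offset of 0.1, the filter, the variance model, single pairs of numbers, correlated readings within a pair of numbers and leaving out each sample.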

Additional observations from a re-analysis of the deposited data

Results flagged for a closer look

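The petc minus WT difference of AT3G07790 was larger in numbers 3 and 4 than in numbers 1 and 2 by 1.53 on the log2 scale (limma interaction term, adjusted p = 0.0281, and between 0.00814 and 0.147 in the alternatives). It did not pass under the replicate block (0.123) or without any 1 of the 8 samples (0.0762 to 0.147). The split was already visible in the values that chose the gene, so this p is no independent support for it. In petc, numbers 3 and 4 had a mean intensity of 0.493 and numbers 1 and 2 one of 0.497. In WT, where the split lay, numbers 3 and 4 had 0.0968, against 0.321 for numbers 1 and 2. These are low intensities, as the WT mean of AT3G07790 was above that of only 23.1% of tested probes. With an offset of 0.1 before log2 the difference between the pairs was 0.99 in place of 1.53. AT4G34310, one of the genes closest in pattern to AT2G36480, had a log2 value of -0.15 in WT replicate 4. The median of the other WT samples was 0.04. Its intensity was 0.903 in WT replicate 4, against 1.04, 1.05 and 1.01 in WT replicates 1 to 3. The gap was small, but the other WT values lay close together. This was the only sample that stood apart in 48 groups of 4 values examined. Chance at 1 in 20 would give about 2.4 if the 4 values were independent. The numbers of a pair resembled each other, and some genes were picked for their pattern, so the count cannot be judged against that figure.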

How the results depend on the processing

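Over all probes the count past the threshold was 823, with 1374 under the replicate block, 345 with the numbers of a pair as correlated readings and 630 to 729 on leaving out each sample. Of the 19 other RNA genes 4 passed, with 7 under the replicate block, 1 with correlated readings and 3 to 4 on leaving out each sample. Of the 3 measured organelle RNA-binding genes 1 passed, with 2 under the replicate block and 2 with an intensity trend. In limma 0 passed with correlated readings (0 at an unadjusted p below 0.05) and 0 with numbers 1 and 2 alone (2 unadjusted), and 0 to 1 on leaving out each sample (1 to 2 unadjusted). The 3 calls that the block adds among the 19 are given beside those genes, and it removed none. AT2G37510 had a log2 difference of 1.17 with an offset before log2. AT2G36480 had -1.92 with the values as deposited, -1.96 after median centring, -1.88 with numbers 1 and 2 alone and -2.34 with numbers 3 and 4 alone. AT3G07790 had 0.64 with numbers 1 and 2 alone, 2.18 with numbers 3 and 4 alone and 1.01 with an offset before log2. On leaving out each sample the differences were 1.33 to 1.46 for AT2G37510, -2.21 to -2.06 for AT2G36480 and 1.11 to 1.67 for AT3G07790. The limma test of a difference between pairs of numbers called 3 probes, 33 with the offset and 0 under the replicate block (529 at an unadjusted p below 0.05). On leaving out each sample the test of this difference called 0 to 1 (284 to 411 unadjusted). There 1 of the 4 pairs of samples is left with 1 sample that is assumed to vary like the others. For AT2G37510 that difference was -0.28 to 0.12 on leaving out each sample, so its direction was not stable. The cause of these changes was not tested. The number of samples and the unknown scaling limit how small a difference can be seen.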

Other observations

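A second probe is paired in the annotation with AT2G37510 and with 2 other genes, so its signal cannot be given to any of the 3. Its deposited intensity was 1.06, 1.11, 1.06 and 0.994 in petc numbers 1 to 4, against 0.828, 0.874, 0.695 and 0.726 in WT numbers 1 to 4, without overlap. Such a separation on this side held for 16.6% of all tested probes. The log2 difference of that probe was 0.44 ± 0.11 (SE, limma adjusted p = 0.0165, and between 0.00544 and 0.0936 in the alternatives), where the probe of AT2G37510 alone had 1.41. The highest p came with the numbers of a pair as correlated readings.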
